A study of Homo sapiens with 10 samples.

Results

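Genes of fibroblast growth factor (FGF) signalling and its feedback on the kinase ERK, 10 in all, were followed across 10 RNA-seq libraries of the H1 line, which was derived from a human embryo and is grown as pluripotent stem cells. They were the ligand FGF2, the receptor FGFR1, the inhibitors SPRY1, SPRY2, SPRY4, SPRED1 and SPRED2, the phosphatase DUSP6 and the transcription factors ETV4 and ETV5. The genes were chosen by name for their roles in the pathway, with earlier results of these data known. All 10 were found among the 14785 rows of the table, of which 13808 are genes and the others classes of repeats. The cells carried a short hairpin RNA (shRNA) against SMARCA4, MAFK, E2F6 or KDM1A. The control was a hairpin against luciferase (shLUC). Every group, the control included, was a wild-type H1 culture with no harvest time or virus dose given, fed with mTeSR1 on Matrigel, infected with packaged virus and selected with puromycin. Each of the 5 groups had 2 libraries, described as biological duplicates. Whether different hairpins against 1 target were used is not given in the sources used here.

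FGF ligands bind FGF receptors together with heparan sulfate, and the receptors act through adaptors, RAS, RAF and MEK to activate ERK. Active ERK induces transcripts whose products act against the pathway, such as the Sprouty and SPRED proteins and the phosphatase DUSP6, and it also induces the ETS factors ETV4 and ETV5. Human pluripotent stem cells are kept undifferentiated in media that contain FGF2, so the level of the FGF2 transcript is not the whole supply of ligand. The transcripts of this loop are often read as a measure of pathway activity, but only RNA was measured here.

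Values are normalized tag counts as deposited, whole numbers that the authors had already scaled. The distribution is nearly the same in every library (median 594 in all 10), so read depth is unknown. Differences are on the scale of log2(value + 1), with standard errors (SE) from limma. A transcript was said to pass when its limma p, adjusted over all 14785 rows, was under 0.05. Around the values of these genes the scale was fine: a shift by 10 ranks moved a value by at most 0.06 on the log2 scale.

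The libraries were checked first. The targeted transcript stood at 12.7% of its shLUC mean in shSMARCA4, 42.1% in shKDM1A, 61.3% in shE2F6 and 59.6% in shMAFK. Only the fall of SMARCA4 passed (limma adjusted p 8.555e-05), while the adjusted p was 0.132 for KDM1A, 0.774 for E2F6 and 0.572 for MAFK, so knockdown is the label's word for these groups. The unadjusted limma p was 0.0003754 for KDM1A, 0.0049 for E2F6 and 0.051 for MAFK. KDM1A had 3290 and 1879 in shKDM1A, against 6344 and 5925 in shLUC. E2F6 had 336 and 304 in shE2F6, against 491 and 553. For KDM1A and E2F6, both libraries of the targeted group lay below every other library. MAFK itself was at 82 and 216 in the shMAFK libraries, against 212 and 288 in shLUC, so the library labelled shMAFK replicate 2 lay within the control range for its own target. The shKDM1A libraries differed from each other more than any other pair (pooled SD 0.53 on the log2 scale, 0.26 to 0.33 elsewhere), and shKDM1A replicate 1 stood apart on the first principal component. All 15 of 15 markers of pluripotent cells were in the table and none was at 0, with summed values from 158245 to 290756 per library. In shSMARCA4 their median difference from shLUC was -0.24, and 6 had an unadjusted p under 0.05 (0 passed with limma). NANOG was estimated higher and SOX2 (-0.54, limma adjusted p 0.0552), LIN28A, TDGF1, TERF1 and FOXD3 lower. The highest sum was that of shKDM1A replicate 1, where POU5F1 was 148866, against 35710 in both shLUC libraries. At such high values the same numbers recur: LIN28A was 41812 in both shLUC libraries and 30774 in both shSMARCA4 libraries. Of 14 markers of primitive streak, mesoderm and endoderm, 5 were in the table. Their summed value was 220 and 162 in shLUC, 9497 and 1862 in shSMARCA4, 95 and 69 in shMAFK, and from 134 to 336 in shE2F6 and shKDM1A. The markers were MIXL1, EOMES, NODAL, CER1 and FOXA2, of which EOMES, CER1 and FOXA2 were each listed at 0 in some library of shMAFK, shE2F6 or shKDM1A, and none in shLUC or shSMARCA4. Of neuroectoderm markers, 4 of 12 were in the table (sums from 4127 to 10877), and NES made up most of each sum (3168 to 10757). In shLUC, ZIC1 had 95 and 149, SIX6 37 and 17, and SIX3 62 and 211. In shSMARCA4, ZIC1 had 462 and 1004, SIX6 187 and 254, and SIX3 190 and 210. Of trophoblast and amnion markers 2 of 12 were in the table, KRT7 and GABRP (summed 472 and 612 in shLUC, 125 and 114 in shSMARCA4).

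The clearest pattern was a contrast between the shSMARCA4 and shMAFK groups. By group mean, shSMARCA4 had the lowest FGF2 and the highest DUSP6 and SPRY2 of the 5 groups, and shMAFK had the highest FGF2 and the lowest DUSP6 and SPRY2. For DUSP6, shMAFK replicate 1 (1722) was above both shKDM1A libraries (1591 and 1586), so those groups overlapped. The pair shSMARCA4 and shMAFK holds these extreme means and is 1 of 10 pairs of groups compared. Adjustment ran over the rows within each pair and not over the pairs. None of the 10 genes passed against shLUC in any knockdown, while 5 passed between shSMARCA4 and shMAFK, where 7.76% of all rows did. Of these 5, SPRY1 (limma adjusted p 0.0445) and ETV4 (limma adjusted p 0.0457) were close to the threshold. Those 5 became 2, FGF2 and DUSP6, without either shMAFK replicate 2 or shSMARCA4 replicate 2. The plot of all library values shows each gene in turn.

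**Figure D1:**
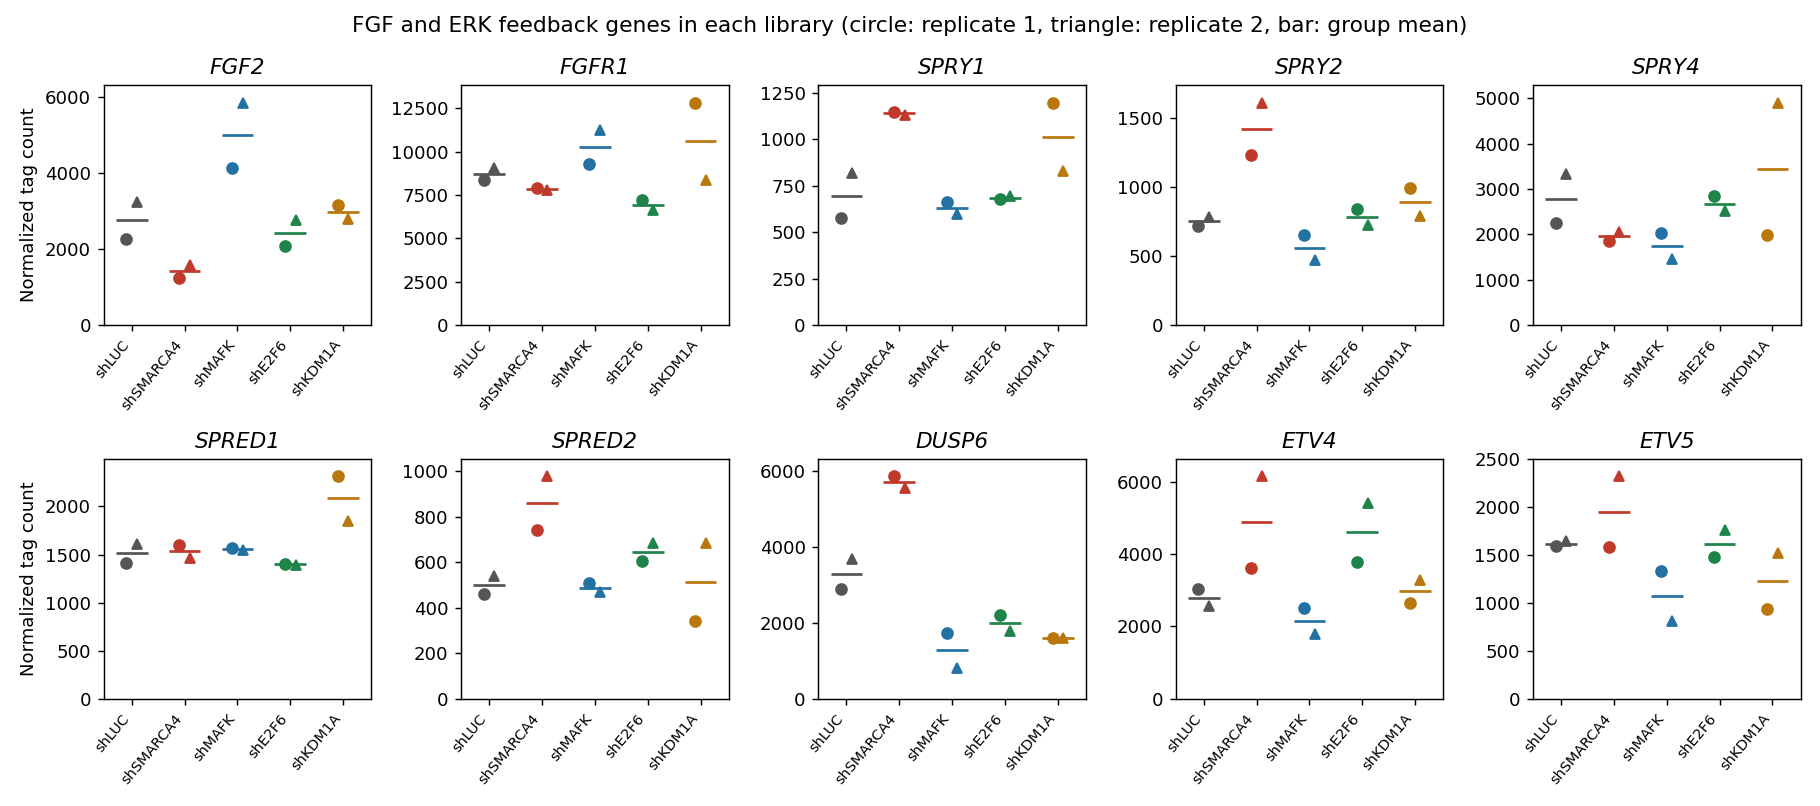
Normalized tag counts (y axis, linear, from 0) of the 10 genes in the 5 groups (x axis). Circles are replicate 1, triangles replicate 2 and bars group means of 2 libraries; DUSP6 sits at 5844 and 5536 in shSMARCA4, above every other library, and at 1722 and 821 in shMAFK.

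FGF2 (ENSG00000138685, chromosome 4, 122826708 to 122898236, GRCh38, plus strand, protein-coding) encodes the ligand that supports self-renewal of these cells. It had 2273 and 3226 normalized tag counts in the shLUC libraries, 1228 and 1591 in shSMARCA4, 4132 and 5844 in shMAFK, 3168 and 2794 in shKDM1A, and 2082 and 2757 in shE2F6. Both shSMARCA4 libraries were below, and both shMAFK libraries above, all 8 other libraries. The group means were 1409.5 ± 257 (SD, n = 2) in shSMARCA4, 2749.5 ± 674 in shLUC and 4988 ± 1211 in shMAFK. The difference between shSMARCA4 and shMAFK was -1.81 (SE 0.25, limma adjusted p 0.00344), so FGF2 was lower in shSMARCA4. Against shLUC it was -0.95 (SE 0.25, limma adjusted p 0.0783) in shSMARCA4 and 0.86 (SE 0.25, limma adjusted p 0.32) in shMAFK, and neither passed.

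The FGF2 locus also holds NUDT6, a gene on the opposite strand that shares 804 exonic bases with FGF2 in GENCODE release 29. No source used here says that counting used strand, so reads in the shared bases cannot be assigned. NUDT6 had 478 and 644 normalized tag counts in shLUC, 330 and 385 in shSMARCA4, 865 and 933 in shMAFK, 322 and 622 in shKDM1A, and 440 and 578 in shE2F6. It was highest in the shMAFK libraries, as FGF2 was, and differed by -1.33 (SE 0.30, limma adjusted p 0.0278) between shSMARCA4 and shMAFK. Its part in the FGF2 values was not tested.

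The region before the FGF2 start is shown with those of SPRY1 and SPRY2, because these are the genes that passed in the direct comparison and whose sequence before a start site lies outside annotated exons. Sequences are from RefSeq (GRCh38.p14), written 5′ to 3′ on the gene's strand, and capitals mark the ETS core motif CCGGAA, the motif of the family to which ETV4 and ETV5 belong. The lines give the FGF2 stretch chr4:122826581-122826707 (plus strand), the SPRY1 stretch chr4:123396545-123396794 (plus strand) and the SPRY2 stretch chr13:80341127-80341376 (minus strand).
FGF2: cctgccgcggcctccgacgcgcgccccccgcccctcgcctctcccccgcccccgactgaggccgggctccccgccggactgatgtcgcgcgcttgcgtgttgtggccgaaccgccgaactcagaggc
SPRY1: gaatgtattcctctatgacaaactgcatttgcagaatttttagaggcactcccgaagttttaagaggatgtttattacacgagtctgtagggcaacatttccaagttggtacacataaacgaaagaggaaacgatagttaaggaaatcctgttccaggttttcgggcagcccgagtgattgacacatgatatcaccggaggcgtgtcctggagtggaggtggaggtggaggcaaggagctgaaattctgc
SPRY2: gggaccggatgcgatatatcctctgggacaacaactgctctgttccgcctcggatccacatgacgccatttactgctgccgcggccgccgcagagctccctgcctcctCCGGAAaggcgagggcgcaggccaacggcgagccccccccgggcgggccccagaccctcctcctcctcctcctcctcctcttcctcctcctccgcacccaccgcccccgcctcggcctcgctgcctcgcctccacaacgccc
The table of promoters had 11 windows of 250 bases before a start for 7 of the 10 genes, several with alternative starts; FGFR1, ETV4 and ETV5 had no entry. CCGGAA, searched on both strands, occurred in 2 of the 11 windows, namely 1 of SPRY1 (a second start) and 1 of SPRY2. In the SPRY2 sequence above it spans positions -142 to -137 from the start. It occurred in 14.5% of all 35116 windows, and in 22.1% of the 15441 windows of genes in the expression table. The AP-1 motif TGANTCA and the E-box CACGTG, also searched on both strands, occurred in 0 of the 11 windows, so no matches overlapped. They occurred in 6.57% and 6.34% of all windows, and in 4.37% and 8.11% of the windows of genes in the expression table. With only 11 windows, 0 cannot be told from such shares. These are matches of letters and were not set against any binding data.

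FGFR1 (ENSG00000077782, chromosome 8, 38400215 to 38468834, minus strand) encodes an FGF receptor that pluripotent cells express. It had 8374 and 9056 normalized tag counts in shLUC, 7917 and 7784 in shSMARCA4, 9296 and 11277 in shMAFK, 12828 and 8374 in shKDM1A, and 7210 and 6647 in shE2F6. The highest value was that of shKDM1A replicate 1, and the other shKDM1A library equalled the lower control. FGFR1 did not pass between any pair of groups, and its F-test over the 5 groups had a limma adjusted p of 0.284. The interval of its difference between shSMARCA4 and shLUC, -0.60 to 0.30 at 95%, leaves out a 2-fold change in either direction.

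DUSP6 (ENSG00000139318, chromosome 12, 89347232 to 89353271, minus strand) encodes a cytoplasmic phosphatase that dephosphorylates ERK. It had 2879 and 3673 normalized tag counts in shLUC, 5844 and 5536 in shSMARCA4, 1722 and 821 in shMAFK, 1591 and 1586 in shKDM1A, and 2190 and 1780 in shE2F6. Both shSMARCA4 libraries were above both controls, and all 6 libraries of the other knockdowns were below both controls. Across the 10 libraries DUSP6 varied 7.12-fold, the widest range of the 10 genes. Its mean was 5690 ± 218 (SD, n = 2) in shSMARCA4, 3276 ± 561 in shLUC and 1272 ± 637 in shMAFK. DUSP6 was higher in shSMARCA4 than in each other knockdown: by 2.26 (SE 0.30, limma adjusted p 0.00307) against shMAFK, 1.84 (limma adjusted p 0.00944) against shKDM1A and 1.53 (limma adjusted p 0.0293) against shE2F6.

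Against shLUC, DUSP6 did not pass. The differences were 0.81 (SE 0.30, limma adjusted p 0.214) in shSMARCA4, -1.45 (SE 0.30, limma adjusted p 0.155) in shMAFK, -0.72 (limma adjusted p 0.963) in shE2F6 and -1.03 (limma adjusted p 0.326) in shKDM1A. The shMAFK value rested partly on the library labelled shMAFK replicate 2: it was -0.92 without that library and -1.98 without replicate 1. An annotated noncoding gene on the opposite strand, AC024909.2, shares 1875 exonic bases with DUSP6 and was not analysed here.

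The Sprouty genes encode inhibitors that act between the receptor and RAF. SPRY2 (ENSG00000136158, chromosome 13, 80335976 to 80340951, minus strand) had 720 and 784 normalized tag counts in shLUC, 1229 and 1610 in shSMARCA4, 650 and 469 in shMAFK, 990 and 793 in shKDM1A, and 842 and 724 in shE2F6. The shSMARCA4 libraries were above all 8 others and the shMAFK libraries below all 8 others. SPRY2 was higher by 1.35 (SE 0.22, limma adjusted p 0.00728) in shSMARCA4 than in shMAFK. Against shLUC the difference in shSMARCA4 was 0.90 (SE 0.22, limma adjusted p 0.054), the smallest adjusted p of any of the 10 genes in a comparison with shLUC.

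SPRY1 (ENSG00000164056, chromosome 4, 123396795 to 123403760, plus strand) lies on the same chromosome as FGF2. It had 578 and 816 normalized tag counts in shLUC, 1148 and 1132 in shSMARCA4, 660 and 599 in shMAFK, 1197 and 832 in shKDM1A, and 676 and 695 in shE2F6. Both shSMARCA4 and both shKDM1A libraries were above the controls. SPRY1 was higher by 0.86 (SE 0.22, limma adjusted p 0.0445) in shSMARCA4 than in shMAFK, and its difference from shLUC was 0.73 (SE 0.22, limma adjusted p 0.113) in shSMARCA4 and 0.54 (SE 0.22, limma adjusted p 0.407) in shKDM1A.

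SPRY4 (ENSG00000187678, chromosome 5, 142310427 to 142326455, minus strand) did not follow its relatives. It had 2249 and 3329 normalized tag counts in shLUC, 1854 and 2061 in shSMARCA4, 2039 and 1464 in shMAFK, 1991 and 4906 in shKDM1A, and 2842 and 2520 in shE2F6. All 4 shSMARCA4 and shMAFK libraries were below both controls, and the shKDM1A pair spanned the controls, with a 2.46-fold gap between its libraries. No comparison of SPRY4 passed, and its F-test had a limma adjusted p of 0.453, the largest of the 10 genes. Between shSMARCA4 and shMAFK it differed by 0.18, with a 95% interval from -0.68 to 1.03.

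The SPRED genes encode membrane proteins that bring the RAS inactivator NF1 to the membrane. SPRED1 (ENSG00000166068, chromosome 15, 38252326 to 38357249, plus strand) had 1410 and 1614 normalized tag counts in shLUC, 1596 and 1468 in shSMARCA4, 1572 and 1547 in shMAFK, 2312 and 1854 in shKDM1A, and 1402 and 1392 in shE2F6. It had the narrowest range of the 10 genes (1.66-fold), and only the shKDM1A libraries lay above all 8 others. The shKDM1A difference from shLUC was 0.46 (SE 0.16, limma adjusted p 0.388).

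SPRED2 (ENSG00000198369, chromosome 2, 65310851 to 65432637, minus strand) had 460 and 541 normalized tag counts in shLUC, 741 and 978 in shSMARCA4, 508 and 469 in shMAFK, 344 and 686 in shKDM1A, and 606 and 686 in shE2F6. The shSMARCA4 libraries were above all 8 others, and the shKDM1A pair held the lowest value of all. Its difference from shLUC was 0.77 (SE 0.29, limma adjusted p 0.22) in shSMARCA4, and it did not pass between any pair of groups.

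ETV4 and ETV5 encode ETS transcription factors induced by ERK. ETV4 (ENSG00000175832, chromosome 17, 43527844 to 43579620, minus strand) had 3025 and 2555 normalized tag counts in shLUC, 3604 and 6143 in shSMARCA4, 2512 and 1788 in shMAFK, 2650 and 3289 in shKDM1A, and 3780 and 5420 in shE2F6. The shSMARCA4 and shE2F6 libraries were all above the controls, with a 1.7-fold gap inside the shSMARCA4 pair. ETV4 was higher by 1.15 (SE 0.29, limma adjusted p 0.0457) in shSMARCA4 than in shMAFK. Its difference from shLUC was 0.76 (SE 0.29, limma adjusted p 0.229) in shSMARCA4 and 0.70 (SE 0.29, limma adjusted p 0.962) in shE2F6.

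ETV5 (ENSG00000244405, chromosome 3, 186046308 to 186110318, minus strand) had 1591 and 1650 normalized tag counts in shLUC, 1586 and 2322 in shSMARCA4, 1330 and 812 in shMAFK, 933 and 1522 in shKDM1A, and 1479 and 1760 in shE2F6. All shMAFK and shKDM1A libraries were below both controls, and the library labelled shMAFK replicate 2 was the lowest. ETV5 passed in no comparison: the difference between shSMARCA4 and shMAFK was 0.88 (SE 0.31, limma adjusted p 0.124).

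In each knockdown the 10 genes were then counted together against shLUC. In shSMARCA4, 0 of 10 passed with limma, where 4.18% of all rows passed (1.67% higher and 2.51% lower). At an unadjusted p under 0.05 there were 6 (16.3% of all rows), of which SPRY1, SPRY2, SPRED2, DUSP6 and ETV4 were estimated higher and FGF2 lower. Libraries did not overlap with shLUC for 8 genes (51% of all rows), 5 above (25.6%) and 3 below (25.4%). The median size of the difference was 0.74 over the 10 genes and 0.21 over all rows. Between replicates the median size was 0.26 in shSMARCA4 and 0.24 in shLUC over the 10 genes, against 0.22 and 0.15 over all rows. Replicate values are differences between single libraries, which vary more than differences between means of 2 libraries. Without both shKDM1A libraries 3 genes passed (SPRY1, SPRY2 and SPRED2), and 4 passed with a separate weight for each group (FGF2, SPRY1, SPRY2 and SPRED2). The count over all rows went up as well, from 618 to 1162 and 1306. Of the primitive streak, mesoderm and endoderm markers, MIXL1 and NODAL passed as higher in shSMARCA4 (summed list 9497 and 1862, against 220 and 162), as did ZIC1 of neuroectoderm, while KRT7 and GABRP passed as lower. In bulk RNA more cells of a type and more RNA per cell cannot be told apart; the part of these markers and of the pluripotency markers in these values was not tested.

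In shMAFK, 0 of 10 passed with limma (0.0135% of all rows did), and 2 had an unadjusted p under 0.05 (8.77% of all rows), namely FGF2 and DUSP6. Libraries did not overlap with shLUC for 7 genes (49.1% of all rows). Of these, 2 were above (23.8% of all rows), FGF2 and FGFR1, and 5 below (25.3%), SPRY2, SPRY4, DUSP6, ETV4 and ETV5. The median size of the difference was 0.42 over the 10 genes and 0.17 over all rows. Between the shMAFK replicates, which are single libraries and not means, it was 0.47 over the 10 genes and 0.16 over all rows. The library labelled shMAFK replicate 2, whose MAFK value lay between the controls, held the highest FGF2 and the lowest SPRY2, SPRY4, DUSP6, ETV4 and ETV5 of all 10 libraries. With a separate weight for each group, DUSP6 passed (limma adjusted p 0.0224, from 0.0224 to 0.929 over the alternatives), where 487 of all rows passed in place of 2.

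In shE2F6, 0 of 10 passed with limma (0% of all rows did), and 2 had an unadjusted p under 0.05 (5.09% of all rows), with DUSP6 estimated lower and ETV4 higher. Libraries did not overlap with shLUC for 5 genes (40.7% of all rows), with SPRED2 and ETV4 above (2, 20.3% of all rows) and FGFR1, SPRED1 and DUSP6 below (3, 20.4%). The median size of the difference, 0.14, was under the 0.155 of all rows. Between the shE2F6 replicates, which are single libraries and not means, it was 0.198, against 0.203 over all rows.

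In shKDM1A, 0 of 10 passed with limma (0.0271% of all rows did, 0.0203% higher and 0.00676% lower) and 3 had an unadjusted p under 0.05 (11.5% of all rows), with SPRY1 and SPRED1 estimated higher and DUSP6 lower. Libraries did not overlap with shLUC for 5 genes (38.8% of all rows), with SPRY1, SPRY2 and SPRED1 above (3, 17.9% of all rows) and DUSP6 and ETV5 below (2, 20.9%). The median size of the difference was 0.24 over the 10 genes and 0.23 over all rows. Between the shKDM1A replicates, which are single libraries and not means, it was 0.42 over the 10 genes and 0.38 over all rows. Without shKDM1A replicate 2, 3 genes passed (FGFR1, SPRY1 and SPRED1) where 3235 of all rows did. That fit rests on shKDM1A replicate 1 alone, the library that stood apart, with its spread assumed to be that of the other groups. Without replicate 1, 0 of the 10 genes passed.

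**Figure D2:**
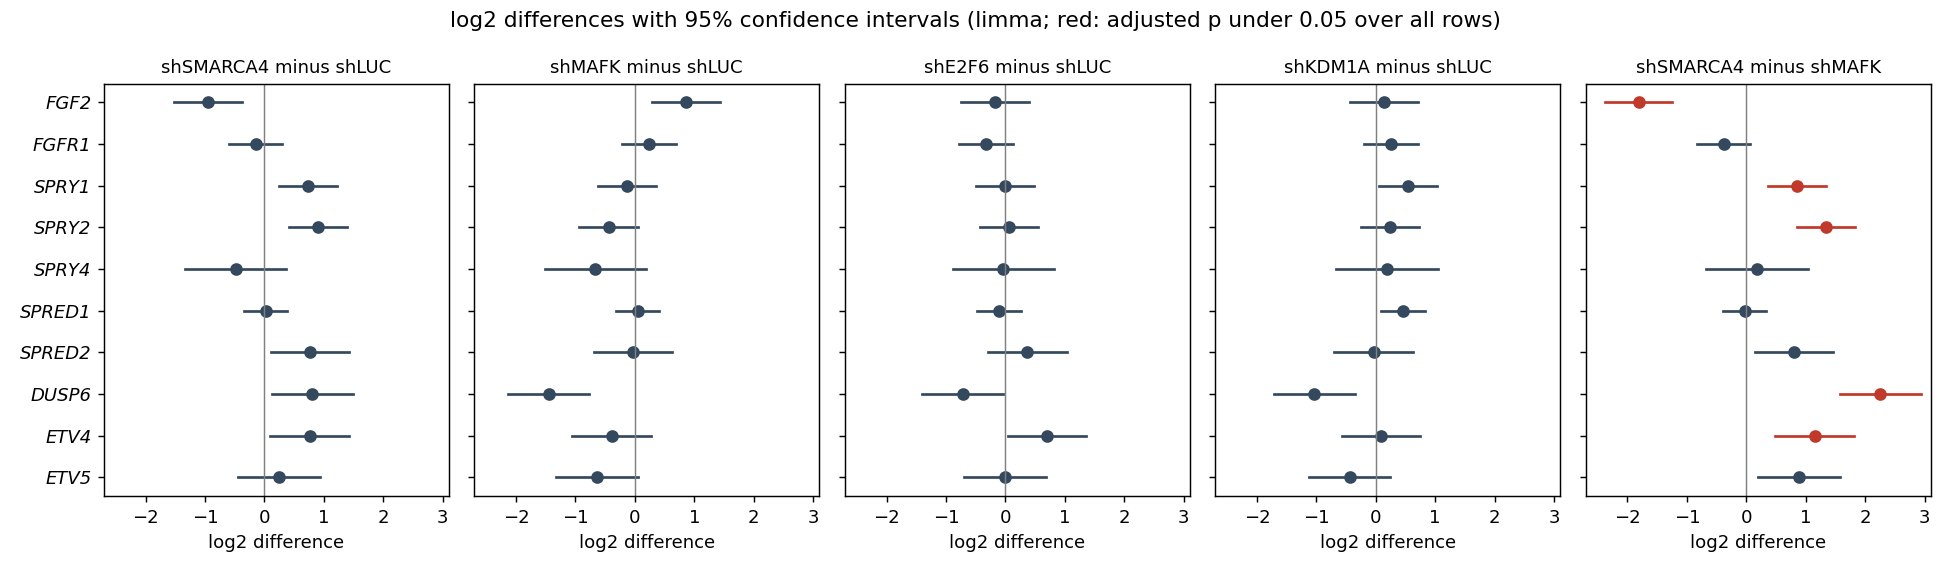
Differences on the log2 scale (x axis) of the 10 genes (y axis) for each knockdown minus shLUC and for shSMARCA4 minus shMAFK; points are limma estimates, lines 95% confidence intervals from 2 libraries a group, and red marks an adjusted p under 0.05. Red appears in the last panel only, at FGF2 (-1.81), SPRY1 (0.86), SPRY2 (1.35), DUSP6 (2.26) and ETV4 (1.15).

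The knockdowns were compared with each other next. These comparisons use no shLUC mean, and p was adjusted within each and not over the 10 pairs of groups. Between shSMARCA4 and shMAFK 5 of 10 genes passed with limma, where 7.76% of all rows did: SPRY1, SPRY2, DUSP6 and ETV4 were higher in shSMARCA4 and FGF2 was lower. At an unadjusted p under 0.05 there were 7 (21.3% of all rows), and libraries did not overlap for 8 (55.6%). FGF2 and DUSP6 passed in each of the 21 alternative settings, SPRY2 in 19, SPRY1 in 13 and ETV4 in 11. These settings share libraries, and the one without a filter repeats the main fit, because every row had a mean of at least 10. The counts of settings are therefore not independent support. Without the library labelled shMAFK replicate 2, only FGF2 (-1.56) and DUSP6 (1.72) passed, and the same 2 passed without shSMARCA4 replicate 2. These fits leave 1 library in a group, assumed to vary like the other groups, and 291 and 442 of all rows passed in them.

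Between shSMARCA4 and shKDM1A, 2 of 10 genes passed (6.87% of all rows): DUSP6 was higher in shSMARCA4 and FGF2 lower, by -1.09 (SE 0.25, limma adjusted p 0.0356). Between shSMARCA4 and shE2F6, 1 passed (3.55% of all rows), which was DUSP6. Libraries did not overlap for 8 genes in each of these comparisons (44.5% of all rows against shKDM1A and 46.5% against shE2F6), and 6 and 4 had an unadjusted p under 0.05 (24% and 15.6%). The 3 comparisons among shMAFK, shE2F6 and shKDM1A gave 0 of 10 each with limma, and 5, 5 and 3 genes at an unadjusted p under 0.05 (13.1%, 13% and 15.2% of all rows). All rows passed at 0.487% between shMAFK and shE2F6, 0.0406% between shMAFK and shKDM1A and 0.129% between shE2F6 and shKDM1A. Between shMAFK and shE2F6 the libraries of all 10 genes did not overlap (50.7% of all rows), against 5 between shMAFK and shKDM1A (39.2%) and 6 between shE2F6 and shKDM1A (38.4%). The smallest limma adjusted p in these comparisons was 0.123, for FGF2 between shMAFK and shE2F6 (1.04, SE 0.25).

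Over the 5 groups together, limma's moderated F-test passed for 3 of 10 genes, where 5.07% of all rows passed. The 3 were DUSP6 (limma adjusted F-test p 0.0145), FGF2 (0.0264) and SPRY2 (0.0451). The count was 5 without both shKDM1A libraries, with SPRY1 and SPRED2 added, and 0 without either shSMARCA4 library. F-test counts over all rows were not taken in these settings. When the group means of each gene were put in order, none of the 40 steps between neighbouring groups passed with limma (smallest adjusted p 0.106, between shKDM1A and shSMARCA4 for SPRY2). An unadjusted p under 0.05 was found for 7 steps. The same steps were not counted over all rows, so the 7 cannot be set against a share. For FGF2 the order from low to high was shSMARCA4, shE2F6, shLUC, shKDM1A and shMAFK. For DUSP6 it was shMAFK, shKDM1A, shE2F6, shLUC and shSMARCA4.

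**Figure D3:**
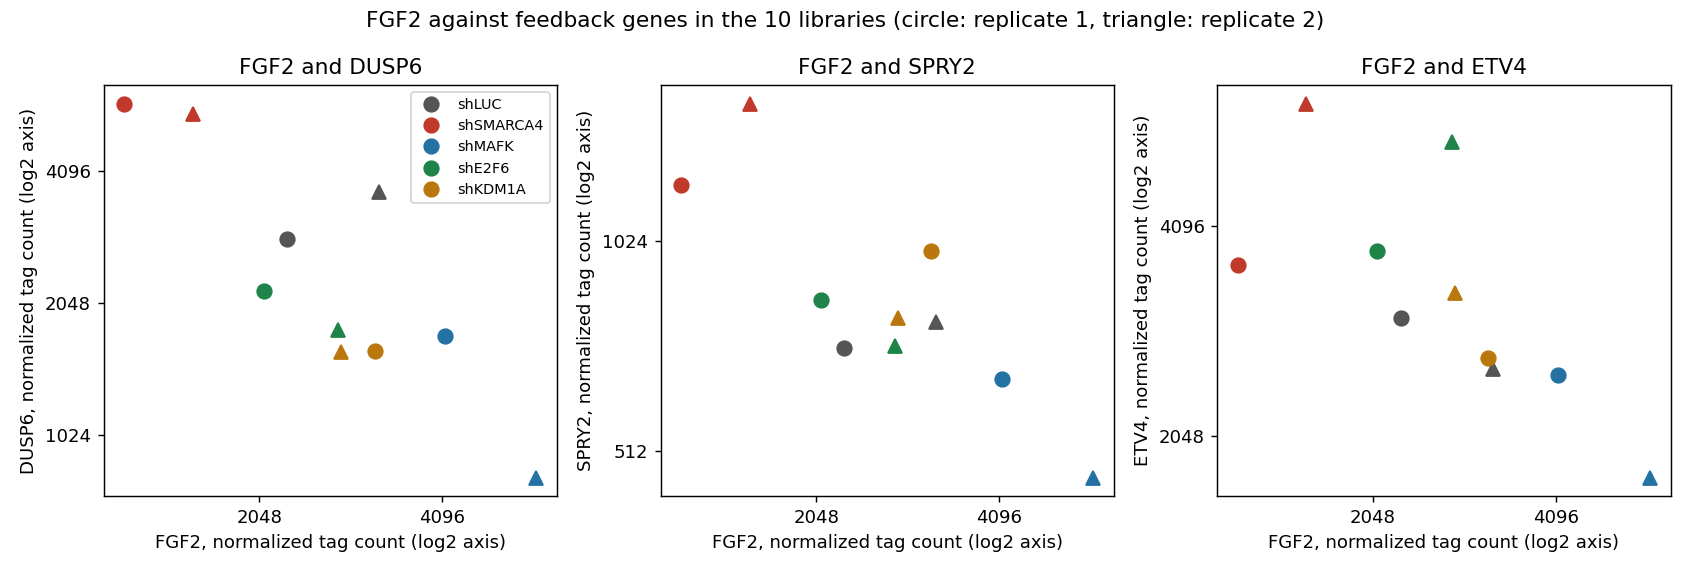
FGF2 (x axis) against DUSP6, SPRY2 and ETV4 (y axes), in normalized tag counts on log2 axes, for the 10 libraries; colours are groups, circles replicate 1 and triangles replicate 2. The shSMARCA4 libraries lie at the upper left of the DUSP6 panel (FGF2 1228 and 1591) and the library labelled shMAFK replicate 2 at the lower right (FGF2 5844, DUSP6 821).

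How the 10 genes varied with each other was described by Pearson's r of the log2 values over the 10 libraries, which share a normalization and come from 5 groups, so the points are not independent. Of 45 pairs, 27 had a positive r and 18 a negative one. The highest were SPRY1 with SPRY2 (r 0.84, rho 0.84), ETV4 with ETV5 (r 0.82, rho 0.68) and SPRY2 with DUSP6 (r 0.81, rho 0.55). Without the 2 libraries farthest from the median of the gene named first, these were 0.86, 0.52 and 0.55. For FGF2, r was -0.86 with DUSP6 (rho -0.73), -0.84 with SPRY2 (rho -0.73) and -0.72 with ETV4 (rho -0.85). Without the 2 libraries farthest from the FGF2 median these became -0.64, -0.70 and -0.74. This did not extend to every inhibitor, since r of FGF2 was 0.21 with SPRED1 (rho 0.33) and -0.11 with SPRY4 (rho -0.10). For FGFR1, r was -0.82 with ETV5 (rho -0.69), which became -0.36 without the 2 libraries farthest from the FGFR1 median. For SPRY4, r with the other genes ran from -0.37 to 0.40.

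**Figure D4:**
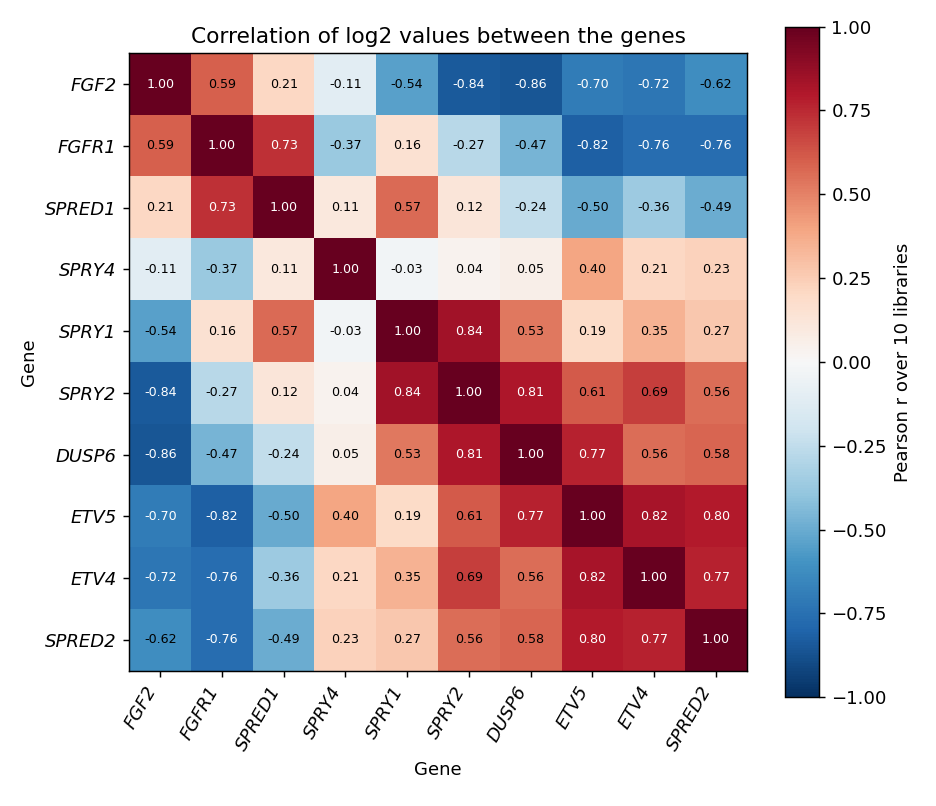
Pearson's r of log2(value + 1) over 10 libraries for each pair of the 10 genes (both axes), from blue (-1) to red (1). FGF2 and FGFR1 are negative with DUSP6, ETV4, ETV5 and SPRED2, and SPRY1, SPRY2 and DUSP6 are positive with each other.

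Rows with the most similar pattern were found among all rows by the same r over 10 libraries, as a description only. For FGF2 they were AC007326.4 (r 0.99), LAMA5, which encodes a laminin chain (0.98), and ASS1, an enzyme of arginine synthesis (0.98). For DUSP6 they were LINC00960 (0.96), TMED8 (0.95) and RCAN3 (0.93), and for SPRY2 they were LINC01500 (0.97), TNIK (0.96) and LRP10 (0.96). ETV4 was most like DYNC1H1 (0.98), the heavy chain of cytoplasmic dynein, WWP2 (0.96) and SIPA1L1 (0.95), and ETV5 most like TMEM246 (0.96), CORO1B (0.94) and FBXW9 (0.94). For SPRED2 the rows were SRPK2 (0.98), RAC1 (0.97) and FAM222B (0.96), and for SPRED1 they were C3orf67 (0.98), ZBTB10 (0.97) and NLRP12 (0.97). For SPRY1 they were TMEM44 (0.97), ARHGAP4 (0.96) and PIK3R1 (0.95), and for FGFR1 they were GAS1 (0.97), ATG16L2 (0.97) and GPRIN2 (0.96). SPRY4 had the lowest values, with MAP2K6 (0.90), LCK (0.85) and RAB37 (0.85, or 0.48 without the 2 libraries farthest from the SPRY4 median). None of the rows named here as most alike was another of the 10 genes.

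The rest of the pathway was read from 5 lists with 116 genes, 87 of them in the table. In shSMARCA4, 8 of 87 passed with limma (9.2%, against 4.18% of all rows), 2 higher and 6 lower, with a median difference of -0.02. In shMAFK, shE2F6 and shKDM1A 0 of 87 passed with limma, and 13, 4 and 11 had an unadjusted p under 0.05 (8.77%, 5.09% and 11.5% of all rows did). In shSMARCA4 23 had one (16.3% of all rows). Fewer of the 8 passed when 1 library of shLUC or shSMARCA4 was left out, and fewer of all rows passed as well. Such fits leave 1 library in a group. SDC2 passed in each of 21 alternative settings, which are not independent of each other.

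Among other FGF ligands and receptors, 10 of 27 were in the table and FGFR3 passed in shSMARCA4. FGFR3, a second FGF receptor, had 336 and 424 normalized tag counts in shLUC, 104 in both shSMARCA4 libraries and 634 and 1259 in shMAFK. It was lower by -1.85 (limma adjusted p 0.0259) in shSMARCA4, and its difference in shMAFK was 1.24 (limma adjusted p 0.324). As for FGF2, the shLUC libraries lay between those of shSMARCA4 and shMAFK. FGFR3 had -0.78 in shE2F6 (limma adjusted p 0.987) and -0.65 in shKDM1A (limma adjusted p 0.493). FGF8, a ligand of the primitive streak, had 782 and 146 in shSMARCA4 and at most 8 in any other library (limma adjusted p 0.0773), and so did not pass, though it did in 7 alternatives, among them a pseudocount of 10, no mean-variance trend and leaving out either shKDM1A library. FGF19 had the largest difference of the list in shE2F6 (0.85, limma adjusted p 0.99) and shKDM1A (1.11, limma adjusted p 0.413), and FGFBP3, a carrier of FGFs, was among the largest in shMAFK (-0.73, limma adjusted p 0.649).

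Of the co-receptors and heparan sulfate genes, 20 of 23 were in the table, and in shSMARCA4 1 passed higher and 3 lower. SDC2, a heparan sulfate carrier of the cell surface, had 2295 and 2302 normalized tag counts in shLUC and 695 and 652 in shSMARCA4 (-1.77, limma adjusted p 0.00218). HS6ST1, a sulfotransferase that acts on heparan sulfate, had 1550 and 1568 in shLUC and 628 and 487 in shSMARCA4 (-1.49, limma adjusted p 0.00894). SULF2, which removes such sulfate groups outside the cell, was lower by -1.13 (limma adjusted p 0.0167), and FLRT2, of a family of membrane proteins that interact with FGF receptors, was higher by 1.40 (limma adjusted p 0.00844). In shMAFK the largest differences were those of SULF1 (-0.85, limma adjusted p 0.238) and GPC4 (-0.70, limma adjusted p 0.155). In shE2F6 they were those of GPC2 (-0.54) and FLRT3 (-0.47), and in shKDM1A those of GPC2 (0.66) and FLRT2 (-0.66), with limma adjusted p from 0.345 to 1.

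Of the adaptors, RAS, RAF, MEK and ERK, 26 of 27 were in the table, with a median difference of 0.00 in shSMARCA4. The 1 that passed there was RPS6KA2, a kinase activated by ERK, at 298 and 296 normalized tag counts against 644 and 819 in shLUC (-1.29, limma adjusted p 0.0105). RRAS (0.79, limma adjusted p 0.252) and SOS2 (0.77, limma adjusted p 0.129) had the next largest differences in shSMARCA4. In shMAFK the difference of the adaptor GAB2 was 0.88 (limma adjusted p 0.388). The largest differences were those of HRAS (0.40) and RPS6KA2 (-0.37) in shE2F6, and of MAPK3 (-0.52) and SOS2 (0.49) in shKDM1A, and none of these passed (limma adjusted p 0.453 to 1).

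Of other negative regulators, 19 of 24 were in the table. IL17RD, a transmembrane antagonist of FGF signalling also called SEF, had 1976 and 1998 normalized tag counts in shLUC, 7576 and 5420 in shSMARCA4 and 1620 and 822 in shMAFK. It was higher by 1.69 (limma adjusted p 0.0264) in shSMARCA4, and its difference in shMAFK was -0.78 (limma adjusted p 0.559). The phosphatase DUSP5 had -1.06 (limma adjusted p 0.204) in shMAFK and 0.50 in shE2F6, DUSP10 had 1.06 (limma adjusted p 0.381) in shSMARCA4, and DUSP4 had -0.38 in shE2F6. CIC (-0.46), a repressor of ETV4 and ETV5 that ERK inactivates, and RASA1 (0.45) had the largest differences in shKDM1A. None of the 19 passed outside shSMARCA4.

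Other transcripts used as readouts of ERK activity were mostly estimated lower in shSMARCA4. Of the 12 of 15 in the table, 1 was estimated higher there, with a median of -0.44. PHLDA1, the only one that passed, had 2910 and 2922 normalized tag counts in shLUC and 1261 and 1392 in shSMARCA4 (-1.14, limma adjusted p 0.0358). Its difference in shE2F6 was -0.89 (limma adjusted p 0.774). FOSL1 had -1.01 in shSMARCA4 (limma adjusted p 0.506) and -1.64 in shKDM1A (limma adjusted p 0.407), IER3 had -1.36 in shKDM1A (limma adjusted p 0.345), and MYC had -0.47 in shE2F6 (limma adjusted p 1). In shMAFK, EGR1 had 419 and 960 against 141 and 182 in shLUC (1.98, limma adjusted p 0.514). CCND1, which encodes cyclin D1, had 5846 and 7919 in shMAFK against 1998 and 2576 (1.58, limma adjusted p 0.179). Neither passed, although the shMAFK values of both genes were above those of all 8 other libraries.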

How the data were processed

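RNA of 10 H1 libraries, 2 in each of 5 groups, was sequenced on an Illumina instrument after NEB Next Ultra library preparation, per the labels' protocols. The submitters' processing notes name STAR, STARsolo and hg38 with no role; counter, annotation and normalization are not given in the sources used here. The deposited values have the unit score: they are whole numbers, taken to be normalized tag counts, and share 1 median over all libraries, so they are not raw counts. The deposited group means and errors were not used. Groups and replicate numbers came from sample titles, columns from sample descriptions, and 0 columns were left unmapped. Nothing says whether duplicates were separate cultures, so p-values measure the spread between these libraries.

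Differences were computed on log2(value + 1) by limma's lmFit and trended eBayes (version 3.58.1, R 4.3.3, two-sided) in 1 fit of 10 libraries with 5 residual degrees of freedom. Rows needed a mean of at least 10, and all 14785 had it (lowest 19.3). Benjamini-Hochberg adjustment ran over all rows, with a threshold of 0.05. The fit was run on simulated data in which each row had the same spread in all groups. The libraries here differed in spread, so that run does not show how the fit behaves on them. Pathway genes named were those past the threshold and, per list and comparison, the 2 with the largest difference among genes whose higher group averaged 50 or more. Of these, 1 gene that this rule names is not reported here. For likeness, the 3 highest r per gene were taken. Genes, lists and tests were chosen with earlier results of these data known. Positions are from GENCODE release 29 and promoters from RefSeq. Tables used Python 3.11.15 and pandas 2.3.3, plots matplotlib 3.10.9. Alternatives covered pseudocount, filter, scaling, variance model, libraries in the fit and a replicate block.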

Additional observations from a re-analysis of the deposited data

How the results depend on the processing

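With 2 libraries a group and unknown depth, differences that did not pass are not shown to be absent. The count of the 10 genes that passed in shSMARCA4 against shLUC, 0, became 1 with median scaling (SPRY2), 4 with group weights, 2 with only the 2 groups compared, 3 without both shKDM1A libraries and 1 with the replicate block (FGF2). Over all rows, 618 in the main fit, these settings gave 618, 1306, 919, 1162 and 643 in the same order. In shMAFK the count of the 10 genes became 1 with group weights, where 487 of all rows passed. The direct count of shSMARCA4 against shMAFK, 5, was 3 without the mean-variance trend and 3 with the replicate block. Over all rows 1148 became 1178 and 1266 in these. The F-test count, 3, was 5 without both shKDM1A libraries, and its count over all rows was not taken there. The pathway list count, 8, became 13 when groups were weighted and 13 when both shKDM1A libraries were left out. The block rests on numbers only: replicate differences correlated between groups at -0.05 to 0.34, over 0.1 in 2 of 10 pairs, so libraries were not treated as pairs.

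Leaving out 1 library at a time gave 0 to 3 genes in shSMARCA4, 0 to 3 in shKDM1A, 0 to 0 in shMAFK and shE2F6, 2 to 6 in the direct comparison, 0 to 8 in the F-test and 1 to 13 on the pathway lists. The F-test count was highest without shKDM1A replicate 2, and lower than in the main fit without either shMAFK library. In the first of these fits the shKDM1A group rests on replicate 1 alone, the library that stood apart. F-test counts over all rows were not taken in these omissions, so the F-test counts cannot be set against a share. The direct comparison gave 3 without either shE2F6 library or shMAFK replicate 1. Directions of differences close to 0 also turned. Across these omissions the log2 difference ran, in shSMARCA4, from -0.0764 to 0.12 for SPRED1 and from -0.0308 to 0.52 for ETV5. In shMAFK it ran from -0.38 to 0.12 for SPRY1, from -0.0496 to 0.15 for SPRED1 and from -0.15 to 0.0854 for SPRED2. In shE2F6 it ran from -0.43 to 0.0759 for FGF2, -0.25 to 0.25 for SPRY1, -0.0534 to 0.16 for SPRY2, -0.31 to 0.25 for SPRY4 and -0.13 to 0.12 for ETV5. In shKDM1A it ran from -0.12 to 0.39 for FGF2, -0.0565 to 0.56 for FGFR1, -0.46 to 0.84 for SPRY4, -0.53 to 0.46 for SPRED2 and -0.0691 to 0.24 for ETV4. Between shSMARCA4 and shMAFK it ran from -0.0608 to 0.42 for SPRY4 and -0.0871 to 0.0334 for SPRED1. SPRY1 in shE2F6 was 0.0026 with median scaling. The cause of these shifts was not tested.

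Counts over all rows moved as follows. In shSMARCA4, 618 became 1306 with group weights, 1162 without both shKDM1A libraries and 89 to 1159 with 1 library left out. In shMAFK, 2 became 5 with quantile normalization, 5 without the trend, 487 with group weights, 32 with only the 2 groups, 34 without both shKDM1A libraries, 1 with the block and 0 to 37 with 1 library left out. In shE2F6, 0 became 21, 1 and 5 with group weights, only the 2 groups and no shKDM1A libraries, and 0 to 5 with 1 left out. In shKDM1A, 4 became 9 without the trend, 2 with group weights, 1 with only the 2 groups and 1 to 3235 with 1 left out. Between shSMARCA4 and shMAFK, 1148 became 2072 with group weights, 2147 without both shKDM1A libraries and 291 to 2135 with 1 left out. Alternatives for the direct comparison and the pathway lists were chosen after seeing the data.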
